A study of Mus musculus with 6 samples.

Results

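TRIM proteins are ubiquitin ligases built from a RING finger, B-box zinc fingers and a coiled coil, followed by a C-terminal domain that chooses the substrate. The mouse genes were followed in SL4, a luciferase-expressing mouse CRC cell line, without SEMA6A overexpression (pLV-Control) and with stable lentiviral overexpression of SEMA6A (pLV-SEMA6A). The members were all genes of the deposited table whose name is Trim, a number and at most 1 lower-case letter, which gave 68 genes out of 53700, after 1 pseudogene was left out. The 36 members with a mean of at least 1 TPM over the 6 libraries are described, and the other 32 are counted. There were 3 libraries of each kind, made from poly-A mRNA, and the deposited values are TPM, levels corrected for transcript length and for the library total. The labels do not say whether the control cells carried an empty vector. The paper's Results call the RNA-seq controls pLV-Control, while its sequencing methods name them only as SL4, so they may be untransduced. No second, independently made SEMA6A line is described for the sequencing, so an effect of SEMA6A and a difference between cell lines cannot be told apart.

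Many TRIM genes are themselves induced by interferon, and their products act in antiviral defence as sensors' helpers, as brakes, or by binding viral capsids. Other branches of the family are known for other roles. Trim24, Trim28 and Trim33 carry a PHD finger and a bromodomain and act on chromatin, Trim2, Trim3 and Trim32 carry NHL repeats, and members with a COS box bind microtubules. The question of the comparison was which TRIM genes differ in RNA level between SL4 cells with and without SEMA6A overexpression.

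Sema6a was listed at 0 TPM in every control library, against 98.7, 118 and 112 TPM with SEMA6A, the direction that the labels give. TPM keeps no read depth, so no detection limit can be given for any member. None of 9 colorectal epithelial markers reached a mean of 1 TPM, and Epcam, Cdx1 and Cdx2 were listed at 0 in every library. Of 6 leukocyte markers 4 were listed at 0 throughout and Cd68 reached a mean above 1 TPM (0.68 to 1.97 TPM in pLV-Control and 0.77 to 1.07 TPM in pLV-SEMA6A). None of 3 endothelial markers reached 1 TPM. The summed level of 5 fibroblast markers was 115 to 130 TPM in pLV-Control and 176 to 183 TPM in pLV-SEMA6A. Nearly all of it was Col3a1, with means of 119 and 172 TPM, and within this list Col1a1 and Col3a1 rose, Pdgfra fell from 1.76 to 0.78 TPM, Dcn had a log2 fold change of −0.083 and was not called, and Col1a2 was below the filter. The part of these shifts in the TRIM results was not tested.

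Of the 36 described TRIM members, 9 fell in pLV-SEMA6A and 0 rose. In such bulk RNA, fewer cells expressing a gene and less RNA per cell cannot be told apart. A member was called when its adjusted p from limma was under 0.05 and its absolute log2 fold change on the log2(TPM + 1) scale was over 0.5, and by that rule 10.8% of all 12510 genes tested were lower and 5.12% were higher. The 9 were Trim30a, Trim34a, Trim12c, Trim14, Trim25, Trim21, Trim56, Trim45 and Trim3. On the adjusted p alone, 15 members were lower and 5 higher, where 28.2% and 19.5% of all genes were. The 3 pLV-SEMA6A libraries lay below the 3 pLV-Control libraries for 16 members and above them for 9, against 34.7% and 23.8% of all genes. Among those called, Trim30a, Trim34a and Trim12c had a pLV-SEMA6A mean under 1 TPM and passed the filter through pLV-Control. They had to differ, and their number supports nothing about the family. With a minimum mean of 5 TPM, 25 members were tested and 5 were lower. Centring each library on its median gave 8 members lower and 1 higher, and changed the split over all genes from 1347 lower and 640 higher to 961 and 1002.

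Trim28, the corepressor KAP1 that zinc-finger proteins recruit to retroelements, was the highest member, followed by Trim35 and Trim27. Of the 36, 2 members had a mean above 100 TPM, 18 lay between 10 and 100 TPM and 16 below 10 TPM. The TPM summed over all 68 members was 987, 995 and 978 in pLV-Control and 979.8, 942 and 913 in pLV-SEMA6A. Trim28 made up 16.5 to 18.1% of the sum in control cells and 20.0 to 22.5% with SEMA6A. The group ranges of the sum overlapped, although the mean TPM of single described members differed by up to 10.5-fold.

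**Figure D1:**
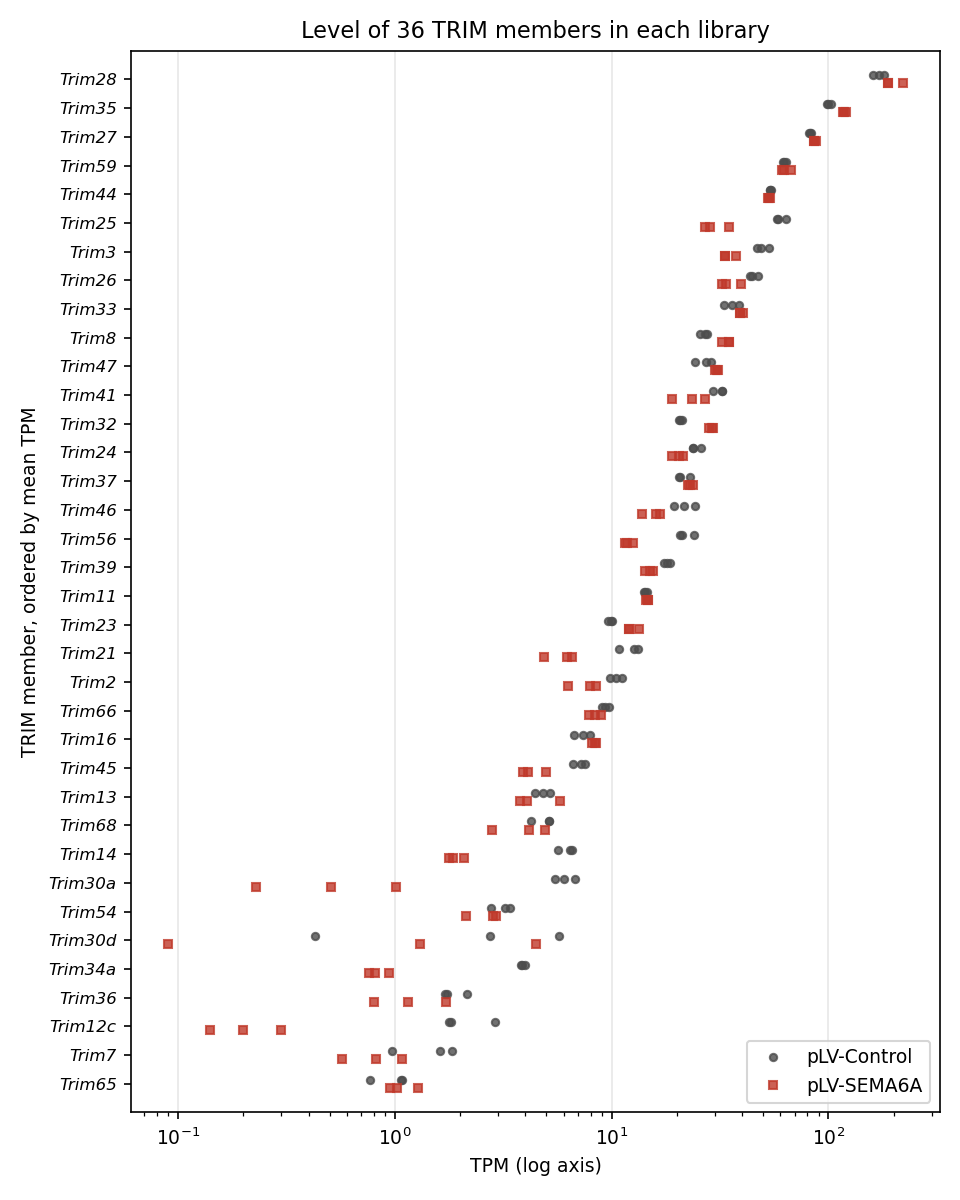
TPM on a log axis (x) of the 36 described TRIM members (y), each circle a pLV-Control library and each square a pLV-SEMA6A library. Trim28 leads at 161 to 221 TPM, and the squares of Trim30a, Trim34a, Trim12c, Trim14, Trim25, Trim21 and Trim56 lie clear to the left of the circles.

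Of the 9 members called lower, 7 belong to a list of 14 members known as interferon-induced. Of its 9 described members, 7 fell and 0 rose, where 10.8% and 5.12% of all genes tested did. Trim30a, Trim34a and Trim12c are among the 7 and passed the filter through pLV-Control, so they had to differ. Their part in the count and the median supports nothing about the list. With them included, the median log2 fold change was −0.98, while the median over all genes tested was −0.064. Among the other 27 described members 2 fell and 0 rose, and their log2 fold changes had a median of −0.016. The selection was written from general knowledge with earlier results of these data known, so it is not independent evidence of a direction.

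Trim25 ubiquitinates the RNA sensor RIG-I and is also a ligase for ISG15. It was measured at 64.0, 58.5 and 57.9 TPM in the control libraries, against 34.7, 26.9 and 28.5 TPM with SEMA6A. The groups did not overlap. The means were 60.1 ± 3.34 and 30.04 ± 4.13 TPM (SD over 3 libraries a group), and the log2 fold change by limma was −0.98, with a standard error of 0.10 and an adjusted p of 0.000361. Trim25 had the highest mean over the 6 libraries among the members called, and with each library left out in turn its log2 fold change stayed between −1.09 and −0.91.

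Trim21, the cytosolic antibody receptor known as the autoantigen Ro52, was measured at 12.7, 10.8 and 13.2 TPM in the control libraries, against 6.56, 6.23 and 4.87 TPM with SEMA6A. Every pLV-SEMA6A library was below every pLV-Control library. The means were 12.2 ± 1.31 and 5.89 ± 0.90 TPM (SD over 3 libraries a group), a log2 fold change by limma of −0.95 (adjusted p = 0.00119, standard error 0.12).

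Trim30a, a brake on NF-κB signalling that promotes the loss of TAB2 and TAB3, showed the largest difference among the 36 members. It was measured at 6.76, 5.50 and 6.03 TPM in the control libraries, against 0.23, 0.51 and 1.01 TPM with SEMA6A. The groups lay far apart, although the pLV-SEMA6A libraries also differed among themselves. The means were 6.10 ± 0.63 and 0.58 ± 0.40 TPM (SD over 3 libraries a group), and the log2 fold change by limma was −2.19, with a standard error of 0.20 and an adjusted p of 0.000273. Because 1 is added to each TPM, this fold change understates the change of a gene this low. Of all stretches of 31 bases in Trim30a transcripts, 11.9% recur in another gene, chiefly the neighbour Trim30d.

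Trim30d gave no clear difference. It was measured at 0.43, 5.73 and 2.74 TPM in the control libraries, against 4.47, 0.09 and 1.30 TPM with SEMA6A, so the libraries of each group scattered widely and the groups overlapped. The log2 fold change of −0.46 had a standard error of 0.75 and a 95% interval from −2.26 to 1.33 (adjusted p = 0.637), and this interval holds the value of Trim30a.

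Trim34a and Trim12c belong to the same cluster of relatives of TRIM5, the capsid-binding retroviral restriction factor of primates. Trim34a was measured at 3.80, 3.97 and 3.85 TPM in the control libraries, against 0.81, 0.76 and 0.94 TPM with SEMA6A, with no overlap. The mean of Trim34a was 3.87 ± 0.087 TPM in control cells and 0.84 ± 0.093 TPM with SEMA6A (SD over 3 libraries a group). Its log2 fold change by limma was −1.41, with a standard error of 0.12 and an adjusted p of 0.000185. For Trim34a, 68.5% of stretches of 31 bases recur elsewhere, above all in its near copy Trim34b, which was listed at 0 in 5 libraries and at 0.03 TPM in the other, so its values are uncertain where reads of this pair were split. Trim12c was measured at 1.82, 1.78 and 2.90 TPM in the control libraries, against 0.30, 0.20 and 0.14 TPM with SEMA6A. The mean of Trim12c was 2.17 ± 0.64 TPM in control cells and 0.21 ± 0.081 TPM with SEMA6A (SD over 3 libraries a group). Its log2 fold change by limma was −1.37, with a standard error of 0.20 and an adjusted p of 0.00198, and 48.1% of its stretches recur elsewhere, mainly in Trim5. The 1 added to each TPM understates the change of both genes. With 0.1 added instead, the log2 fold change was −2.09 for Trim34a and −2.85 for Trim12c. Trim12c rested on pLV-Control replicate 3 for its place among the tested genes, since its mean was below 1 TPM without that library.

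Trim14, a member without a RING finger that acts as an adaptor at the mitochondrial antiviral protein MAVS, was measured at 5.64, 6.44 and 6.59 TPM in the control libraries, against 2.09, 1.78 and 1.85 TPM with SEMA6A. The mean of Trim14 was 6.22 ± 0.51 TPM in control cells and 1.91 ± 0.16 TPM with SEMA6A (SD over 3 libraries a group). The groups lay far apart relative to their spread. The log2 fold change by limma was −1.31, with a standard error of 0.10 and an adjusted p of 0.000143. On the opposite strand, exons of Nans overlap 31.3% of the exon bases of Trim14. Nans was measured at 55.4 ± 1.73 TPM in control cells against 43.4 ± 2.16 TPM with SEMA6A (SD over 3 libraries a group), and since the sources used here do not say whether strand was used, reads of the pair cannot be told apart.

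Trim56, an antiviral ligase linked to the DNA-sensing adaptor STING, was measured at 20.7, 21.1 and 23.9 TPM in the control libraries, against 11.5, 11.8 and 12.5 TPM with SEMA6A. The mean of Trim56 was 21.9 ± 1.73 TPM in control cells and 11.9 ± 0.50 TPM with SEMA6A (SD over 3 libraries a group). The groups did not overlap, and the log2 fold change by limma was −0.82, with a standard error of 0.069 and an adjusted p of 0.000186. Trim26, a ligase encoded in the MHC region, was measured at 43.3, 47.5 and 44.3 TPM in the control libraries, against 33.9, 39.5 and 32.3 TPM with SEMA6A. Its libraries did not overlap either, but its log2 fold change by limma of −0.35 (adjusted p = 0.0122, standard error 0.080) was under the minimum of 0.5.

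**Figure D2:**
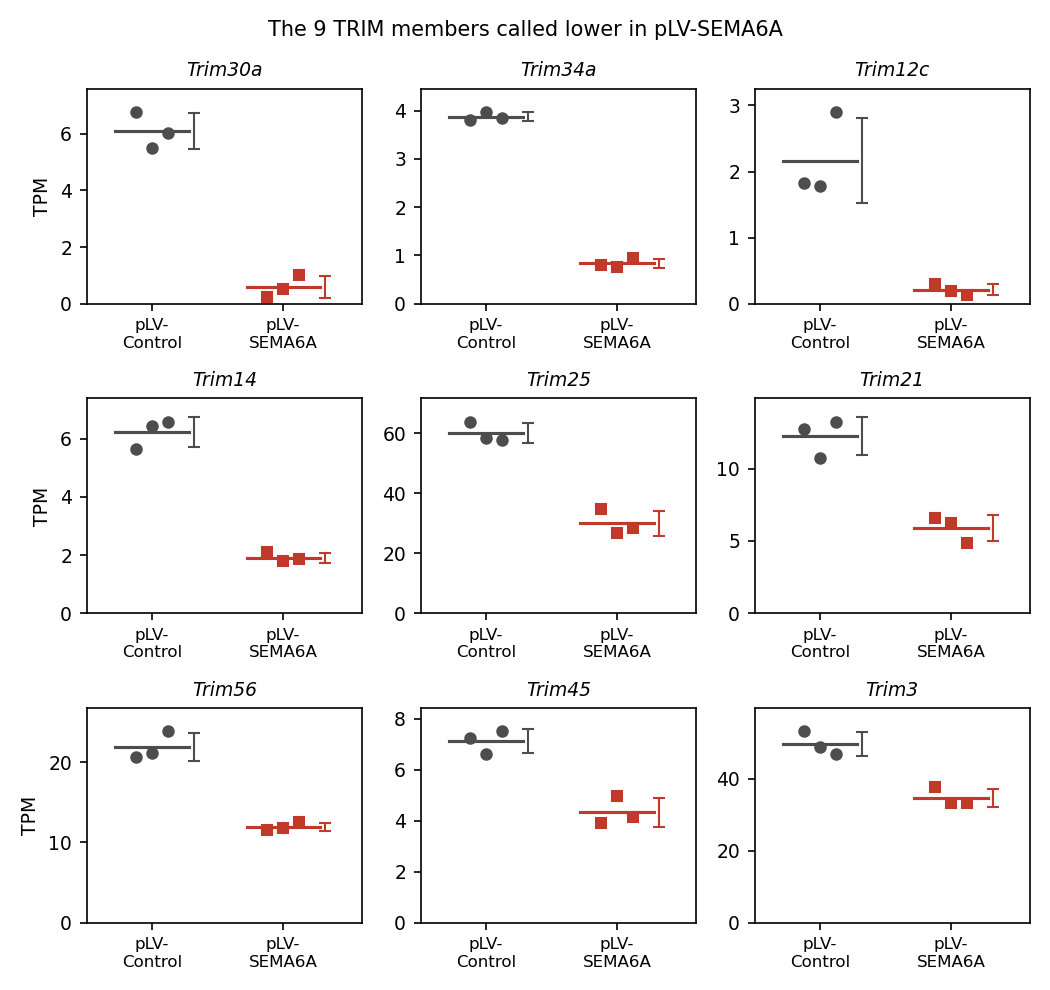
TPM (y) of the 9 TRIM members called lower, by group (x), with each point a library, the horizontal line the group mean and the bar beside it the SD of 3 libraries. In each panel the 3 pLV-SEMA6A points lie below the 3 pLV-Control points, from Trim30a (6.10 against 0.58 TPM) to Trim3 (49.6 against 34.7 TPM).

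The interferon-stimulated response element is the promoter sequence through which type I interferon switches genes on, and it was looked for in the promoter windows of the members as GAAA and a second GAAA with 2 free bases between them, on either strand. RefSeq windows on GRCm38.p6, each from 250 bases before to 50 bases after a transcript start, were matched by symbol for 53 of the 68 members and 27 of the 36 described. These letters were in a window of 4 of the 7 members called lower that had one (Trim12c, Trim21, Trim30a and Trim34a), of 3 of the 20 described members that were not called (Trim2, Trim26 and Trim30d), and of 2 of the 26 lower-expressed members (Trim5 and Trim12a). Of all 32851 windows, 3.44% held them, and of the tested genes with a window 3.79% did, as did 9.50% of all genes called lower. Of the 4 members with the match, Trim12c, Trim30a and Trim34a are those that passed the filter through pLV-Control, and without them 1 of 4 members called lower held it. No match was present in the windows of Trim25, Trim56 and Trim45. Stretches around the match are given for 5 of the members in which it lies near the start and for Trim26, in which 2 matches overlap, 5′ to 3′ in the direction of transcription, with the matched bases in capitals.
Trim30a (chr7:104465164-104465239, minus strand): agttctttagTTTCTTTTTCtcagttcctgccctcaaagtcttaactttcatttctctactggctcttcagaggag
Trim30d (chr7:104507820-104507900, minus strand): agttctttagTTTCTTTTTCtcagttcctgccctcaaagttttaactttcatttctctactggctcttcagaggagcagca
Trim12c (chr7:104353320-104353389, minus strand): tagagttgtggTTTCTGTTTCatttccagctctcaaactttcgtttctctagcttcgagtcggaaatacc
Trim34a (chr7:104244417-104244486, plus strand): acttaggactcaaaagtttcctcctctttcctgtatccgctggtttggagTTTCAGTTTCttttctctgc
Trim21 (chr7:102565453-102565522, minus strand): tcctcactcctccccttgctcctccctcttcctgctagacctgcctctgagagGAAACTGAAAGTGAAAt
Trim26 (chr17:36836976-36837011, plus strand): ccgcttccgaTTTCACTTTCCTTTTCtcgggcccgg
In Trim21 and Trim26 there are 2 overlapping matches that share 4 bases. Counted from the transcript start, the match lies at −36 to −27 in the printed stretch of Trim30a and −41 to −32 in Trim30d. It lies at −29 to −20 in Trim12c and 11 to 20 in Trim34a. Trim30a has another window with a match, at 3 to 12, whose first 50 transcribed bases were not found in its GENCODE transcripts. The stretches of Trim30a and Trim30d are identical at 75 of the 76 bases compared, with the same matched letters, although Trim30a fell and Trim30d was not called.
A shorter element, TTC and GAA with 3 free bases between them, the gamma-activated sequence of interferon signalling, was in a window of 1 of the 7 members called lower (Trim45), 1 of the 20 described members not called (Trim46) and 4 of the 26 below 1 TPM. It was in a window of 9.55% of all genes, 8.06% of the genes tested and 9.61% of all genes called lower.

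The TRIM genes lie on 15 chromosomes, and chromosome 7 carries 16 of them. On GENCODE M21, 10 members stand within a run of 17 annotated genes from Trim6 to Trim30d. Of these, Trim34a, Trim12c, Trim30a and Trim30d reached 1 TPM, and the first 3 were called lower. Trim12a, another of the 10 members in this run, missed the filter with a mean of 0.62 TPM. It was measured at 0.57, 1.25 and 1.86 TPM in the control libraries, against 0, 0.04 and 0.02 TPM with SEMA6A. Without a filter, Trim12a was called too, at a log2 fold change of −1.08 (limma, adjusted p = 0.0177). Trim6, Trim5, Trim34b, Trim30b and Trim30c had means of 0.12 TPM or less. In all, chromosome 7 carries 9 of the 36 described members and 5 of the 9 called lower. Of these 5, 3 (Trim34a, Trim12c and Trim30a) passed the filter through pLV-Control, and Trim21 and Trim3 lie outside the run. Over all genes tested 10.8% were called lower, and the share over all genes of chromosome 7 or of the run was not taken. The counts therefore say nothing about position.

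Outside the interferon-induced list, Trim45 and Trim3 were called lower. Trim45, whose C-terminal part holds a filamin repeat, was measured at 7.24, 6.62 and 7.52 TPM in the control libraries, against 3.90, 4.98 and 4.13 TPM with SEMA6A. The mean of Trim45 was 7.13 ± 0.46 TPM in control cells and 4.34 ± 0.57 TPM with SEMA6A (SD over 3 libraries a group). The groups did not overlap, and the log2 fold change by limma was −0.61, with a standard error of 0.10 and an adjusted p of 0.00351. Trim3, an NHL-repeat ligase best known from the brain, was measured at 53.3, 48.7 and 46.8 TPM in the control libraries, against 37.6, 33.2 and 33.3 TPM with SEMA6A. The mean of Trim3 was 49.6 ± 3.31 TPM in control cells and 34.7 ± 2.53 TPM with SEMA6A (SD over 3 libraries a group). Its log2 fold change by limma of −0.50 (adjusted p = 0.00146, standard error 0.069) only just passed the minimum. Trim3 was called in 3 of 6 leave-one-out fits, failing without pLV-Control replicate 1 (−0.45), pLV-SEMA6A replicate 2 (−0.47) or pLV-SEMA6A replicate 3 (−0.48). It was −0.41 once each library was centred on its median.

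The other NHL members differed in sign. Trim32, which is mutated in a limb-girdle muscular dystrophy, was measured at 21.1, 20.6 and 20.6 TPM in the control libraries, against 29.2, 29.0 and 28.2 TPM with SEMA6A. The libraries of each group lay close together and the groups did not overlap. The log2 fold change by limma of 0.46 (adjusted p = 0.000202, standard error 0.039) was under the minimum, and it became 0.55, which was called, once each library was centred on its median. Trim2, a ligase of neurofilament light chain, was measured at 10.5 ± 0.67 TPM in control cells against 7.57 ± 1.13 TPM with SEMA6A (SD over 3 libraries a group), a log2 fold change of −0.43 (adjusted p = 0.0194) that was under the minimum.

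Besides Trim32, 4 members had an adjusted p under 0.05 with a higher level in pLV-SEMA6A, all by less than the minimum fold change. Trim8, which modulates NF-κB and cytokine signalling, was at 26.6 ± 1.05 and 33.9 ± 1.33 TPM (SD over 3 libraries a group), a log2 fold change of 0.34 (adjusted p = 0.00182). Trim23, which carries an ARF GTPase domain, differed by a log2 fold change of 0.31 (adjusted p = 0.00817). Trim35, the second most abundant member, was at 100.4 ± 2.19 and 118 ± 1.41 TPM (SD over 3 libraries a group), a log2 fold change of 0.24 (adjusted p = 0.000842). Trim28 was measured at 171, 180.2 and 161 TPM in the control libraries, against 221, 189 and 188 TPM with SEMA6A, with pLV-SEMA6A replicate 1 well above the others. Its log2 fold change by limma of 0.22 (adjusted p = 0.0464, standard error 0.073) had an adjusted p of 0.0509 to 0.130 when a library was left out, so the threshold was lost in each of the 6 such fits.

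The chromatin members had log2 fold changes of both signs. Beside Trim28, the TGF-β pathway regulator Trim33 was measured at 35.8 ± 2.77 TPM in control cells against 39.5 ± 0.79 TPM with SEMA6A (SD over 3 libraries a group), with a log2 fold change of 0.14 (95% interval from −0.0028 to 0.29, adjusted p = 0.0958). Trim24, a nuclear receptor coregulator and p53 ligase, differed by a log2 fold change of −0.26 (adjusted p = 0.0121), under the minimum. The testis-enriched Trim66 had one of −0.14 (adjusted p = 0.132). None of the 4 was called, where 15.9% of all genes tested were called either way.

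**Figure D3:**
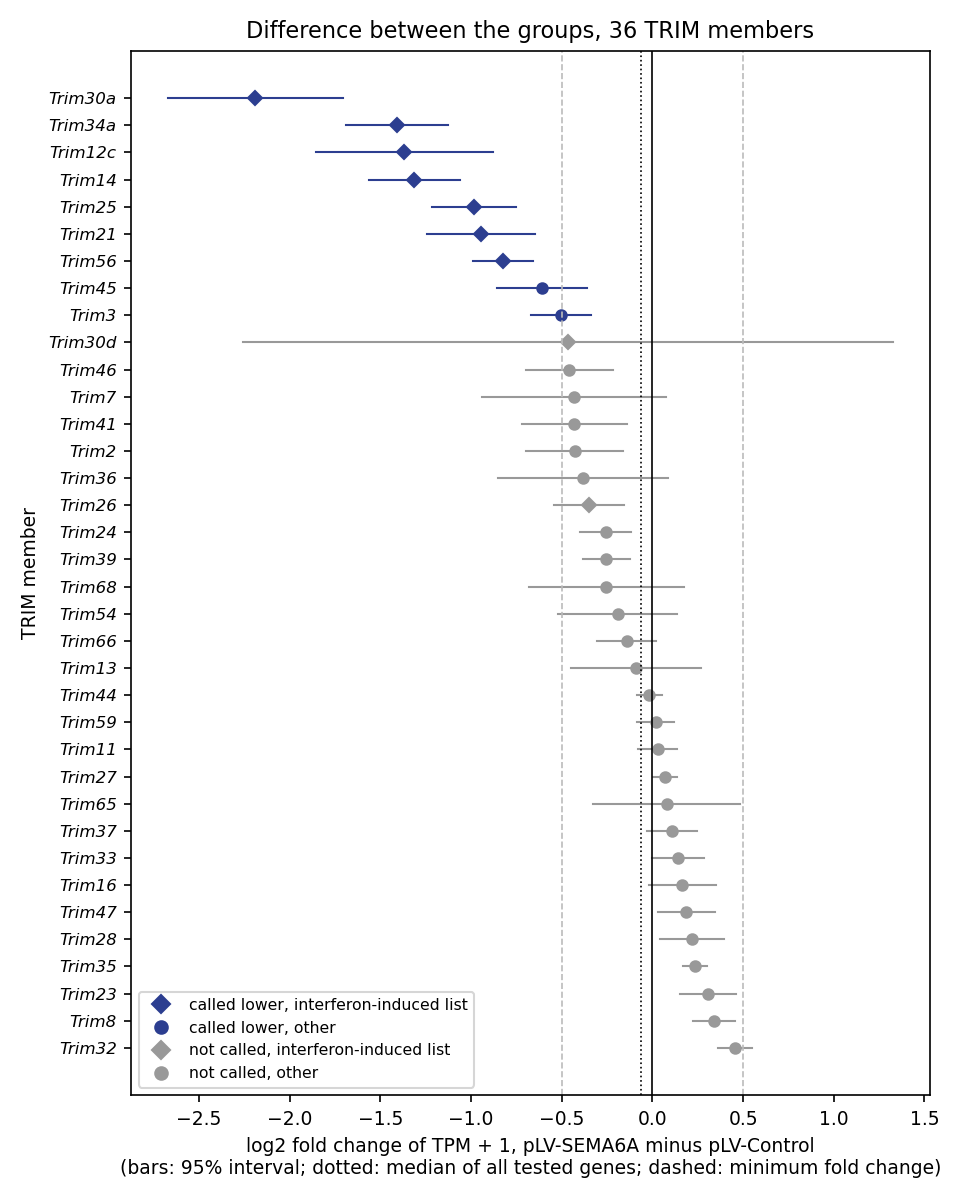
The log2 fold change (x, pLV-SEMA6A minus pLV-Control, on the log2(TPM + 1) scale) of the 36 described TRIM members (y), with 95% intervals from limma as bars. Diamonds mark the interferon-induced list and blue marks the members called lower, which run from Trim30a at −2.19 to Trim3 at −0.50, while no member passes 0.5 on the right.

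The COS-box members that reached 1 TPM were Trim46, Trim36 and Trim54, known from neurons, the cytoskeleton and striated muscle. Trim46 was measured at 19.5, 21.5 and 24.2 TPM in the control libraries, against 16.7, 16.0 and 13.9 TPM with SEMA6A, without overlap. Its log2 fold change by limma was −0.46, with a standard error of 0.10 and an adjusted p of 0.00975, under the minimum, and it was called without pLV-Control replicate 1 (−0.53) and without pLV-SEMA6A replicate 1 (−0.51). Exons of the abundant gene Krtcap2 overlap 6.30% of its exon bases on the opposite strand. Trim36 (1.87 ± 0.25 and 1.22 ± 0.46 TPM) and Trim54 (3.13 ± 0.32 and 2.63 ± 0.45 TPM, SD over 3 libraries a group) overlapped between the groups, with log2 fold changes of −0.38 and −0.19 (adjusted p = 0.151 and 0.292).

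Among the other members with a PRY-SPRY domain, the fold that binds partners in Trim21 and Trim25 too, 0 of 9 were called. Of all genes tested, 15.9% were called either way, so 0 of 9 does not set these members apart. Trim41 (log2 fold change −0.43, adjusted p = 0.0258) and Trim39 (−0.25, adjusted p = 0.00941) were lower by less than the minimum, and Trim41 was called at −0.54 without pLV-SEMA6A replicate 1. Exons of Rack1, which went from 1756 to 1332 TPM in the group means, overlap 0.88% of the exon bases of Trim41 on the opposite strand. Trim7, which binds glycogenin, was at 1.47 ± 0.45 and 0.82 ± 0.26 TPM (SD over 3 libraries a group), with a log2 fold change of −0.43 and a 95% interval from −0.94 to 0.077. With a pLV-SEMA6A mean under 1 TPM, Trim7 too passed the filter through pLV-Control. Trim68 differed by a log2 fold change of −0.25 with an interval from −0.68 to 0.17, and Trim65, which acts on the RNA sensor MDA5, one of 0.079 with an interval from −0.33 to 0.49. At 1.03 TPM, Trim65 was also the member nearest above the filter. Trim47 (0.19, adjusted p = 0.0554) was not called either.

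For 7 further members the interval of the log2 fold change bounds the difference between these libraries. The intervals are not adjusted for the number of genes tested. Trim27, at 82.3 ± 1.04 and 86.4 ± 1.27 TPM (SD over 3 libraries a group), had a log2 fold change of 0.069 with a 95% interval from 0.0020 to 0.14. Its adjusted p by limma was 0.0842, so it was not called. Trim44, a member without a RING finger, was at 53.7 ± 0.36 and 53.1 ± 0.43 TPM (SD over 3 libraries a group), with an interval from −0.087 to 0.054. The interval was −0.084 to 0.12 for Trim59, which sits in a membrane, and −0.082 to 0.14 for Trim11. It was −0.029 to 0.25 for Trim37, a peroxisomal and centrosomal ligase, −0.021 to 0.35 for Trim16, and −0.45 to 0.27 for Trim13 of the endoplasmic reticulum. All of these exclude a change of 0.5, as the intervals of Trim7 and Trim68 do not.

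**Figure D4:**
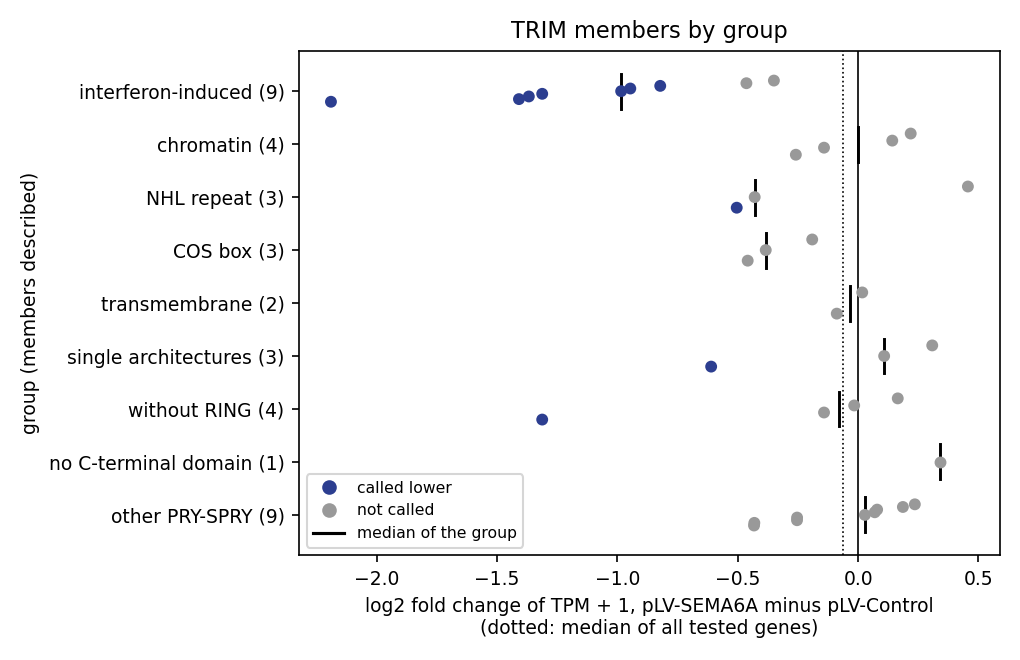
The log2 fold change (x) of the described TRIM members by group (y), with blue for members called lower, grey for the others and a black tick for the group median. Trim14 and Trim66 appear in 2 groups each, and the tick of the interferon-induced list lies at −0.98.

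Of the 32 members below 1 TPM, 10 were listed at 0 in every library (Trim29, Trim30b, Trim31, Trim38, Trim42, Trim50, Trim55, Trim58, Trim60 and Trim61), which can be a failed estimate as well as silence. Of the remaining ones, 9 had a mean of at least 0.1 TPM, led by Trim12a, Trim62 (0.59 TPM) and Trim17 (0.46 TPM). The pLV-SEMA6A libraries lay below the pLV-Control libraries for 3 of the 32 (Trim12a, Trim69 and Trim71) and above them for 0. The share over all genes below 1 TPM was not taken, so this split says nothing about these members as a set. None of the 32 was tested for itself in the main comparison.

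The partners of TRIM proteins were read from 6 lists of 40 genes, of which 38 were tested, 9 fell and 1 rose, where 10.8% and 5.12% of all genes did. In the list of interferon receptors and transcription factors, 5 of 7 genes fell (Ifnar2, Stat2, Irf9, Irf1 and Irf7), with a median log2 fold change of −1.13. This list was written with earlier results of these data known, and any link to the TRIM results was not tested. Irf7 went from 213 ± 3.12 to 23.6 ± 1.85 TPM and Ifnar2 from 68.5 ± 3.89 to 43.5 ± 1.07 TPM (SD over 3 libraries a group). In the RIG-I route of Trim25, 2 of 6 genes fell, Ddx58, which encodes RIG-I itself (93.9 ± 2.55 to 31.8 ± 0.74 TPM), and its regulator Dhx58 (9.84 ± 0.86 to 2.69 ± 1.20 TPM, SD over 3 libraries a group). Rnf135, the other RIG-I ligase, had a value of −0.32 on the log2 fold change scale, Mavs −0.41, and the RNA-binding antiviral protein Zc3hav1 0.11, none of them called.

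Of 11 genes of the E2 and ubiquitin list, 1 fell and 1 rose, where 10.8% and 5.12% of all genes tested did. These counts do not set the list apart. Ube2l6, the E2 of ISG15, fell (log2 fold change −2.30). Vcp, the unfoldase that works with Trim21, rose from 242 ± 1.80 to 356 ± 1.86 TPM (SD over 3 libraries a group, log2 fold change 0.55). The log2 fold change was 0.22 for Ube2n, −0.058 for Ube2w and 0.0093 for Ube2d3, which were not called. None of the 9 genes of the Trim28 repressor complex was called, where 15.9% of all genes tested were called either way. All 9 had an adjusted p under 0.05 by limma, 3 lower and 6 higher, where 28.2% and 19.5% of all genes were. The log2 fold changes of the 9 ran from −0.33 for Atf7ip, a partner of the methyltransferase Setdb1, to 0.38 for the deacetylase Hdac2. Of the 3 SMAD genes, 0 were called, with 1 lower (Smad2, −0.22) and 1 higher (Smad4, 0.25) on the adjusted p alone. Among TRIM genes that carry other symbols, Pml (TRIM19), which builds nuclear bodies, fell from 29.7 ± 0.96 to 19.0 ± 2.09 TPM (SD over 3 libraries a group, log2 fold change −0.62, adjusted p = 0.00124), and the microtubule-binding Mid1 (TRIM18) differed by a log2 fold change of −0.17. Mid2 stayed under 1 TPM and Mefv was listed at 0.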

How the data were processed

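The data are RNA-seq of SL4 cells in 3 libraries per group. The authors deposited TPM per gene and library with 2 decimals, and the mean TPM of each group, which was not used. The submitters' processing notes name HISAT, Bowtie2, RSEM and mm39, and the supplement names DESeq2 for the comparison, which needs counts and was not run. The labels do not say that replicates were separate cultures, so p-values measure the spread between these libraries, which may be technical.

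The 12510 genes averaging 1 TPM or more entered a limma model (version 3.58.1, R 4.3.3, with a mean-variance trend) of log2(TPM + 1) on group, and p-values were adjusted over all of these genes (Benjamini-Hochberg). A call needed adjusted p under 0.05 plus a log2 fold change beyond 0.5 in either direction. For a single gene, the smallest p of an exact two-sided permutation test would be 0.1 here. The steps were tested on simulated data. The alternatives were another pseudocount, other filters and minimum fold changes, median centring, a replicate block and leaving out each library.

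The members and lists were chosen with earlier results of these data known. Each described member is named, with full statistics for called members, Trim25, Trim21 and Trim30a, and called partners are named. A further 2 genes were taken out of the partner lists and their counts and are not reported here. Other members quoted with full values were chosen after their values were seen. All 68 members have their identifier in GENCODE M21 (GRCm38), from which chromosomes, exon overlaps and shared 31-base stretches (either strand) were taken. Promoter windows are from RefSeq on GRCm38.p6, not the mm39 of the authors' notes. Replicate numbers were not taken as pairs, since deviations of equal numbers from the group mean correlated at −0.079 to −0.023.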

Additional observations from a re-analysis of the deposited data

How the results depend on the processing

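The 9 members called lower and 0 higher were also 9 and 0 with a pseudocount of 0.1 and with the replicate block, and 10 and 0 without a filter on low values. With a minimum mean of 5 TPM 5 members were lower, since fewer were tested. Without a minimum fold change, 15 were lower and 5 higher, while a minimum of 1 (log2) left 4 lower. Median centring of the libraries gave 8 lower and 1 higher, and the split of all genes went from 1347 lower and 640 higher to 961 and 1002. The centring raised log2 fold changes by a median of 0.093. Leaving out each library in turn gave 8 to 11 members lower and 0 higher. The 9 partner genes lower and 1 higher became 19 and 10 without a minimum fold change, and with a minimum of 1 there were 0 higher. For all genes these settings gave 3523 lower and 2436 higher, and 304 lower and 81 higher.

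The replicate block changed no call of a TRIM member, with 1301 of all genes lower and 623 higher. Reversed signs came only from members that were not called. Centring gave 0.0045 for Trim13 and 0.077 for Trim44. Over the fits that each lacked 1 library, log2 fold changes ran from −1.07 to 0.10 for Trim30d (above 0 without replicate 2 of either group, 0.050 without that of pLV-Control), from −0.24 to 0.0075 for Trim13 and from −0.022 to 0.043 for Trim59 (the sign turned without pLV-SEMA6A replicate 2 in both). Depth is unknown from TPM, so how many reads lie behind a member near 1 TPM cannot be given.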
